A study of Homo sapiens with 6 samples.

Results

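The 10 genes described here encode enzymes that build purine and pyrimidine nucleotides from small precursors: PPAT, GART, PFAS, PAICS, ADSL, ATIC, IMPDH2 and GMPS of the purine route, and CAD and UMPS of the pyrimidine route. They were picked by gene symbol, and all 10 were found among the 17918 genes of the deposited table. The data are RNA sequencing libraries of KMS11, a human multiple myeloma line, that is, of malignant plasma cells. A hairpin RNA (shRNA) that targets CRIP1, the gene of a small LIM domain protein, was present in 3 of them (knockdown), and a scrambled hairpin in the other 3 (scramble). The labels give no further treatment for either group, and do not say whether the hairpin cells were a clone or a pool or whether replicates came from different cultures. The p-values therefore reflect the spread among these 6 libraries and no more, and that spread may be technical.

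Cells make purines by assembling the ring step by step on phosphoribosyl pyrophosphate (PRPP), an activated ribose sugar, with nitrogen from glutamine, aspartate and glycine and carbon from folate. The shared product, IMP, is then turned into AMP or GMP. The pyrimidine ring is made first, from glutamine, bicarbonate and aspartate, and is joined to PRPP afterwards. Salvage enzymes recycle free bases and nucleosides in parallel. Dividing tumour cells use both supplies for RNA and DNA, and the guanine branch is the target of the drug mycophenolate.

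After CRIP1 knockdown the enzymes of the purine route went in opposite directions. PPAT and ATIC rose, ADSL, PFAS and IMPDH2 fell, and PAICS, GMPS and CAD changed by small amounts. GART and UMPS did not pass the test. Of the 10 genes, 4 were called higher and 4 lower (edgeR's quasi-likelihood test, Benjamini-Hochberg adjusted p under 0.05 over all 12612 genes tested). Over all genes tested 77.6% were called, 39.4% higher and 38.1% lower, so the number of calls among the 10 lies close to that background. Their median log2 fold change was 0.05, against 0.01 for all genes. Changes of at least 1.5-fold were seen in 2 of the 10 (ADSL and PFAS) and in 35.4% of all genes, and changes of at least 2-fold in 0 of the 10 and 18.1% of all genes.

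Library totals ran from 16971454 to 18005318 estimated counts, and single members had 349 to 10346 counts in a library, so counting error was small for each of them. All 10 passed the filter on low counts. CRIP1 itself stood at 2791, 3327 and 3174 TPM, a level corrected for gene length with a fixed total per library, with the scrambled hairpin. It stood at 127, 129 and 134 TPM with the CRIP1 hairpin. Plasma cell markers were present in both groups, at 8553 to 9008 TPM summed over 10 genes in scramble and 3932 to 4190 TPM after knockdown. JCHAIN, the immunoglobulin joining chain and the most abundant of them, made up most of that difference, at 6443 ± 223 and 1789 ± 158 TPM (SD, n = 3 each). Of the 9 of these that were tested, 6 fell and 3 rose. Markers of red cell precursors differed in the same libraries. The 15 listed genes summed to 141 to 146 TPM in scramble, nearly all of it the transferrin receptor TFRC (139 TPM), and to 842 to 857 TPM after knockdown. Of these 15 genes, 12 had 0 scramble counts, among them HBG2, the most abundant of the list after knockdown, and 12 of 14 tested rose while 1 fell. Epithelial markers summed to 21.8 to 24.8 against 141 to 148 TPM, with 6 of 8 higher and 1 lower. Among all genes tested, 39.4% were higher and 38.1% lower. A gene at 0 scramble counts, as most of the red cell list and KRT19, entered the test through its knockdown counts alone. Such a gene could only be called higher, so these shares are no measure for the red cell and epithelial lists. The sums for myeloid markers were 0.94 to 1.27 against 7.22 to 7.84 TPM, for T and NK cell markers 0.43 to 0.63 against 1.37 to 2.05 TPM, for fibroblast and endothelial markers 8.42 to 9.19 against 6.15 to 6.90 TPM, and for mature B cell markers 30.02 to 31.3 against 36.8 to 38.6 TPM. Their part in the results below was not tested. A change in the share of cells of one kind and a change in RNA per cell cannot be told apart in such bulk libraries.

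Of the 10 genes, 2 are neighbours. PPAT lies on chromosome 4 from 56393362 to 56435615 on the minus strand and PAICS from 56435741 to 56464579 on the plus strand (GRCh38, GENCODE 29). Their annotated starts are 126 bases apart, so that a single stretch of DNA lies ahead of both. RefSeq's promoter table (build GRCh38.p14), which spans 250 bases before to 50 after each start, had windows for 8 of the 10 genes. The stretches below are shown because they precede the gene pair that shares a start region, precede a gene that fell, or hold an E-box. The E-box is the letters CACGTG that basic helix-loop-helix factors such as MAX bind, and 2 copies are shown. Capitals mark the E-box or the GC-box (GGGCGG, or CCGCCC on the other strand). The GC-box was added to the search after the sequences were seen. The first stretch runs between the GENCODE starts, and the PFAS stretch and all motif distances are counted from the RefSeq starts. For PFAS the RefSeq start, at 8249289, lies inside the GENCODE gene, which begins at 8247618. For PAICS the RefSeq start is at 56435752. For ATIC the RefSeq start is at 215312059, inside the GENCODE gene, which begins at 215311817. All 30 ATIC bases shown lie in annotated exons of GENCODE.
PPAT to PAICS, chr4:56435616-56435740, minus strand: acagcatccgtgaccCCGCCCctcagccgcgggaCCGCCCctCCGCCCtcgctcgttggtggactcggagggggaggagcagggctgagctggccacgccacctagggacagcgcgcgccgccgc
PFAS, before the RefSeq start, chr17:8249139-8249288, plus strand: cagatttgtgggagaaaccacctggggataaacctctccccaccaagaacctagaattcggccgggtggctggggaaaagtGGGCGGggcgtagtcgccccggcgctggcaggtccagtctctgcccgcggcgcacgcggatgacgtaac
ATIC, E-box before the RefSeq start, chr2:215312001-215312030, plus strand: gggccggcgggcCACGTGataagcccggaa
PAICS, E-box after the RefSeq start, chr4:56435780-56435801, plus strand: ctgtatttgctgCACGTGgaaa

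The stretch between PPAT and PAICS held 3 GC-boxes and was 76.0% G or C. The E-box of PAICS begins 40 bases after its start, and the same letters lie 182 bases before the start of PPAT, so both windows contain 1 shared site. ATIC had 2 E-boxes, 46 bases before and 29 bases after its start. Read on both strands, the E-box was in the windows of 3 of 8 members (ATIC, PAICS and PPAT) and of 8.77% of all 27305 genes in the table. The letters CCAAT, which nuclear factor Y binds, were in 2 of 8 (CAD and GART) and 39.7% of all genes. The GC-box was in 7 of 8 and 48.3% of all genes, and the palindromic site of NRF1 in 0 of 8 and 1.52%. These are letter matches in short windows, in which no binding was measured.

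**Figure D1:**
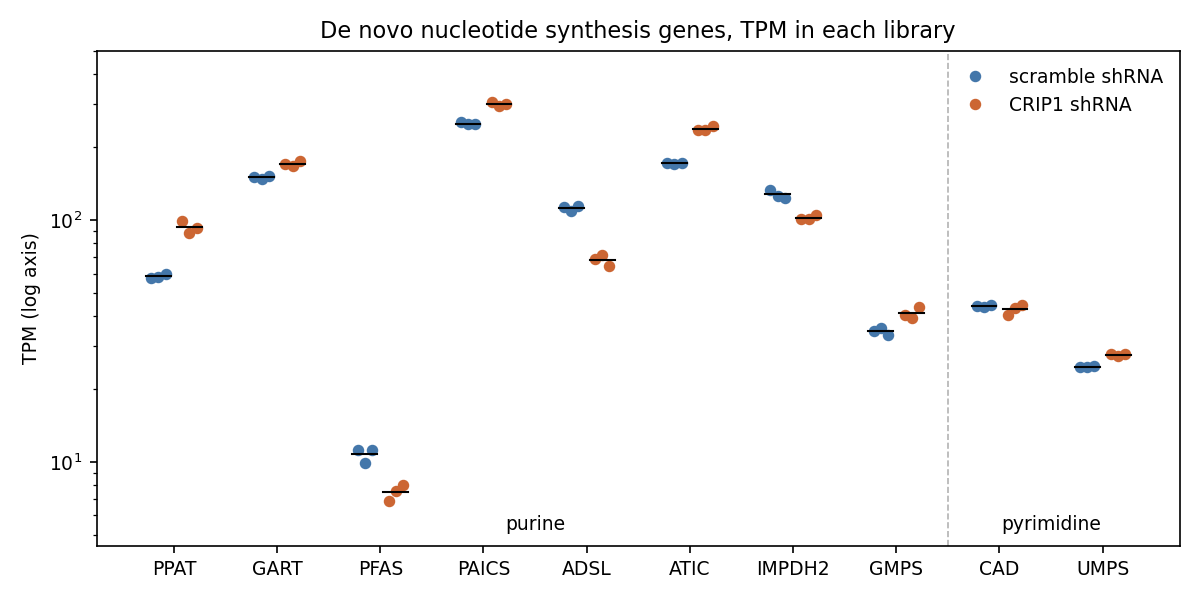
Level of each gene (TPM, log axis) in each of 6 libraries, in order of the purine and then the pyrimidine route. Points are libraries, blue for scramble and orange for CRIP1 shRNA, and black lines are means of 3. PAICS was the most abundant and PFAS the least abundant in both groups, and the points of the groups overlap for CAD alone.

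By level per gene length, the order in scramble was PAICS, ATIC, GART, IMPDH2, ADSL, PPAT, CAD, GMPS, UMPS and PFAS. After knockdown PPAT and ADSL had traded places and the other 8 kept theirs. PAICS stood at the 95.1 percentile of all tested genes in scramble and PFAS at the 39.2 percentile. The plot of levels by library shows the groups apart in 9 of the 10, with 6 higher and 3 lower after knockdown. Over all genes tested, TPM did not overlap in 78.5%, above in 48.2% and below in 30.3%.

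The opening enzyme rose. PPAT transfers the amide nitrogen of glutamine to PRPP, the committed step of the purine route, which its end products inhibit. It had 57.6, 58.3 and 59.9 TPM in scramble replicates 1 to 3 and 98.8, 88.25 and 93.0 TPM in knockdown replicates 1 to 3. All 3 knockdown values lay well above all 3 scramble values. The fitted change was 1.45-fold (log2 fold change 0.54, SE 0.04, edgeR adjusted p = 2.93e-10). The rise of PPAT was smaller, 0.29, and still called with the GC trend removed, where it was level with that of ATIC (0.30).

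PAICS, on the other side of the shared start region, carries out the carboxylation of the imidazole ring and the addition of aspartate in a single protein. It had 254, 248 and 248 TPM in scramble and 306, 296 and 299.9 TPM after knockdown. The groups did not overlap, but the fitted rise was only 1.11-fold (0.15, SE 0.03, edgeR adjusted p = 2.41e-04). With a GC trend removed from each library it was -0.01 (adjusted p = 0.846), so the direction of PAICS depended on that choice. In that setting the median over all genes was -0.08. Within each library there were 4.41, 4.26 and 4.14 PAICS transcripts per PPAT transcript in scramble, and 3.10, 3.36 and 3.23 after knockdown. This ratio of TPM values was 4.27 ± 0.136 against 3.23 ± 0.129 (SD, n = 3 each), with no overlap, so the pair did not move in proportion although their starts adjoin. The exact two-sided permutation p was 0.1, the smallest that 3 against 3 libraries allow. This ratio and those below were chosen after the values were seen.

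GART, which holds 3 of the early steps in one chain, had 150.5, 148 and 151 TPM in scramble and 170.3, 167 and 175 TPM after knockdown. The TPM values were apart, yet the fitted log2 fold change was 0.06 (SE 0.03, 95% interval -0.01 to 0.13) and the edgeR adjusted p was 0.118. It was called higher with upper-quartile scaling (0.10, adjusted p = 0.0103) and on log2(TPM + 1) by limma (0.19, adjusted p = 0.00357), and its sign turned with the GC trend removed (-0.02). In these settings, in that order, the median over all genes was 0.05, 0.12 and -0.08. GART and SON, a splicing protein gene on the other strand, have starts 873 bases apart and share 275 exon bases. SON rose by 0.14 (SE 0.03) from 153 to 189 TPM. The strand setting of the counting is not given, so reads from that overlap cannot be told apart.

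PFAS, the glutamine-using enzyme between the steps of GART, was the least abundant member and fell. It had 11.15, 9.87 and 11.2 TPM in scramble and 6.91, 7.54 and 8.05 TPM after knockdown, without overlap. The fitted change was 1.55-fold lower (-0.63, SE 0.07, edgeR adjusted p = 4.95e-08). CTC1, a telomere protein gene whose start on the other strand is 477 bases from the GENCODE start of PFAS, fell as well, from 3.10 to 2.37 TPM (-0.52, SE 0.09). The ratio of PAICS to PFAS was 22.8, 25.2 and 22.1 in scramble and 44.3, 39.3 and 37.3 after knockdown. The groups did not overlap, but the pair was chosen with the values of both genes known. The ratio therefore restates their separate changes and adds no support to them.

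ADSL, which removes fumarate in the purine ring route and again in the branch to AMP, fell furthest. It had 113, 109 and 114 TPM in scramble and 68.9, 71.8 and 64.25 TPM after knockdown. The groups were far apart, and the fitted change was 1.78-fold lower (-0.83, SE 0.05, edgeR adjusted p = 1.34e-12). ADSL shares 1344 exon bases with AL022238.4, an annotated gene on the same strand that is not among the symbols of the table, so reads there may be divided.

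ATIC, the bifunctional enzyme that closes the ring and gives IMP, went the other way from ADSL. It had 171.1, 170.7 and 171.2 TPM in scramble and 235, 236 and 244 TPM after knockdown. The scramble libraries were nearly equal and all knockdown libraries lay above them, a fitted rise of 1.26-fold (0.34, SE 0.03, edgeR adjusted p = 2.36e-08). Within a library, ATIC over ADSL was 1.52, 1.57 and 1.496 in scramble and 3.40, 3.28 and 3.80 after knockdown. That ratio went from 1.53 ± 0.0370 to 3.49 ± 0.269 (SD, n = 3 each), and being taken within a library it does not depend on the scaling between libraries. It was picked with the opposite changes of ATIC and ADSL known, so its separation restates them.

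**Figure D2:**
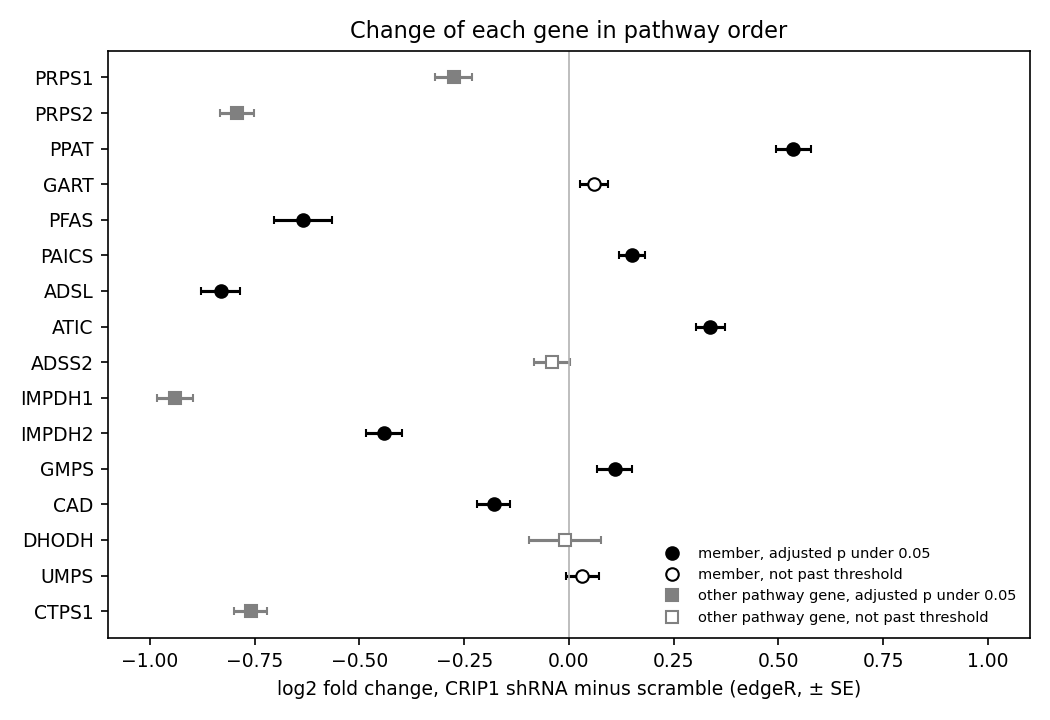
Log2 fold change (CRIP1 shRNA minus scramble, edgeR, bars ± SE) of the 10 members (circles) and of other genes of the routes (squares), listed in the order of the steps. Filled symbols passed an adjusted p of 0.05. PPAT and ATIC lie right of 0, while ADSL, PFAS, IMPDH1 and IMPDH2, CTPS1 and PRPS2 lie to its left.

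At the branch after IMP, the enzymes towards GMP did not move together. IMPDH2 oxidises IMP in the rate-limiting step to guanine nucleotides. It had 133, 126 and 123.5 TPM in scramble and 101, 100.4 and 105 TPM after knockdown, without overlap, and was 1.36-fold lower (-0.44, SE 0.04, edgeR adjusted p = 9.41e-09). Its isoenzyme IMPDH1 fell more, from 90.9 ± 2.48 to 52.2 ± 1.12 TPM (SD, n = 3 each), a log2 fold change of -0.94 (SE 0.04). IMPDH2 therefore made up 59.9%, 57.4% and 57.8% of the summed IMPDH level in scramble and 66.5%, 65.3% and 66.6% after knockdown. That is a gain of 7.78 percentage points with no overlap (exact two-sided permutation p = 0.1, the smallest possible). IMPDH1 has 7 named pseudogene copies in GENCODE 29 and IMPDH2 none, so the reads given to IMPDH1 are less certain. The same limit holds for PAICS, with 7 such copies, PPAT and PRPS1, with 2 each, and GMPS, with 1, and so for the ratios and shares that contain them.

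GMPS, which aminates the product of IMPDH to GMP, had 34.7, 35.6 and 33.55 TPM in scramble and 40.3, 39.1 and 43.65 TPM after knockdown. The groups did not overlap, and the fitted rise was 1.08-fold (0.11, SE 0.04, edgeR adjusted p = 0.0211). That call was lost without scramble replicate 3 (adjusted p = 0.134) or knockdown replicate 3 (0.164), and with the GC trend removed the value turned to -0.07. The median over all genes was -0.08 in that setting. There were 0.158 ± 0.00313 GMPS transcripts per IMPDH transcript in scramble and 0.266 ± 0.0116 after knockdown (SD, n = 3 each), which did not overlap. On the AMP side, ADSS2 was at 86.9 ± 1.36 and 92.9 ± 5.61 TPM, and the test did not call it (-0.04, adjusted p = 0.383). With the GC trend removed, edgeR called ADSS2 lower (-0.20, adjusted p = 3.35e-05). The summed IMPDH level over that of ADSS1 and ADSS2 was 2.56, 2.56 and 2.41 in scramble and 1.62, 1.75 and 1.59 after knockdown. All knockdown libraries thus had fewer IMPDH transcripts per ADSS transcript than any scramble library. Both ratios, to IMPDH and to ADSS, were chosen after the values were seen and restate the changes of single genes.

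**Figure D3:**
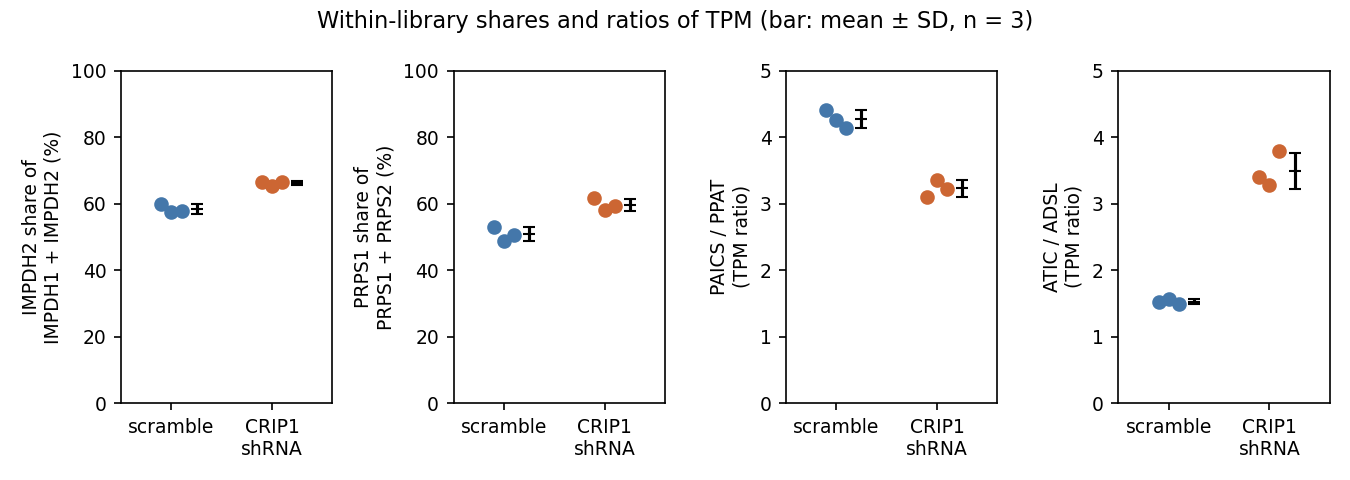
Shares (percent of summed TPM) and ratios of TPM within each library, with points for libraries and bars for mean ± SD (n = 3). The IMPDH2 and PRPS1 shares and the ATIC to ADSL ratio were higher after knockdown and the PAICS to PPAT ratio lower, and the groups overlap in no panel.

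The pyrimidine enzymes moved little. CAD, which fuses the first 3 activities of that route and starts it, had 44.1, 43.6 and 44.3 TPM in scramble and 40.4, 43.2 and 44.6 TPM after knockdown. These values overlap, with knockdown replicate 1 the lowest and replicate 3 the highest of all 6. The fit on counts called CAD 1.13-fold lower (-0.18, SE 0.04, edgeR adjusted p = 3.45e-04), but on log2(TPM + 1) it was not called (-0.04, limma adjusted p = 0.441). UMPS, the bifunctional enzyme that makes UMP, had 24.6, 24.5 and 24.9 TPM in scramble and 28.0, 27.3 and 27.9 TPM after knockdown. Its TPM values were apart, but the fitted log2 fold change was 0.03 (SE 0.04, 95% interval -0.05 to 0.11, edgeR adjusted p = 0.469). UMPS was called higher on log2(TPM + 1) (0.16, limma adjusted p = 0.00564), and turned to -0.03 with the GC trend removed. For CAD and UMPS alike, the median over all genes differed between these settings. It was 0.01 in the edgeR fit, 0.12 on log2(TPM + 1) and -0.08 with the GC trend removed.

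DHODH, the mitochondrial enzyme between CAD and UMPS, stood at 8.14 ± 0.176 and 8.15 ± 0.506 TPM (-0.01, adjusted p = 0.925). CTPS1, which turns UTP into CTP, fell from 101 ± 1.97 to 65.9 ± 2.19 TPM (-0.76, SE 0.04). Its isoenzyme CTPS2 had 0 counts in scramble and 86 over the knockdown libraries, at least 26.1-fold higher if 3 counts in all are taken as the floor for scramble. At 0.803 TPM after knockdown CTPS2 remained rare, and CTPS1 made up 98.8% of the summed CTPS level. Of the 6 genes that complete the routes beside the 10 members, 5 were tested, of which 1 rose (CTPS2) and 2 fell (IMPDH1 and CTPS1). CTPS2 passed the filter through its knockdown counts alone and could only be called higher. Over all genes tested 39.4% rose and 38.1% fell. Once the GC trend was removed 1 of the 5 rose and 3 fell, against 33.9% and 45.1% of all genes. ADSS1, below the filter, was at 0.093 and 0.660 TPM.

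Summed over the 8 purine members, the level was 925, 905 and 913 TPM in scramble and 1027, 1006 and 1032 TPM after knockdown. The 2 pyrimidine members summed to 68.8, 68.1 and 69.2 TPM and to 68.3, 70.5 and 72.5 TPM. The purine sums were apart and the pyrimidine sums overlapped, on a scale (TPM) on which the median gene was itself higher after knockdown. The ratio of these sums was 13.3 ± 0.125 in scramble and 14.5 ± 0.449 after knockdown (SD, n = 3 each). It was 1 of 6 ratios chosen after the values were seen, each of which had an exact permutation p of 0.1, also after adjustment over the 6.

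The median over all genes shifted from 0.01 to 0.12 on log2(TPM + 1) and to -0.08 with the GC trend removed. PPAT, ATIC, ADSL, PFAS and IMPDH2 kept direction and call in all 16 alternatives, with PPAT between 0.29 and 0.67 and ADSL between -0.93 and -0.71. On log2(TPM + 1), 6 members were higher and 3 lower (47% and 29.6% of all genes), and with the GC trend removed 2 were higher and 4 lower (33.9% and 45.1%). With the replicate number as a block the members were 4 higher and 4 lower (39.5% and 38.3%). The transcripts of PPAT (37.9% G or C), GMPS (40.9%) and PAICS (42.3%) have the lowest GC content among the 10, and those of PFAS (58.2%) and CAD (57.7%) the highest.

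**Figure D4:**
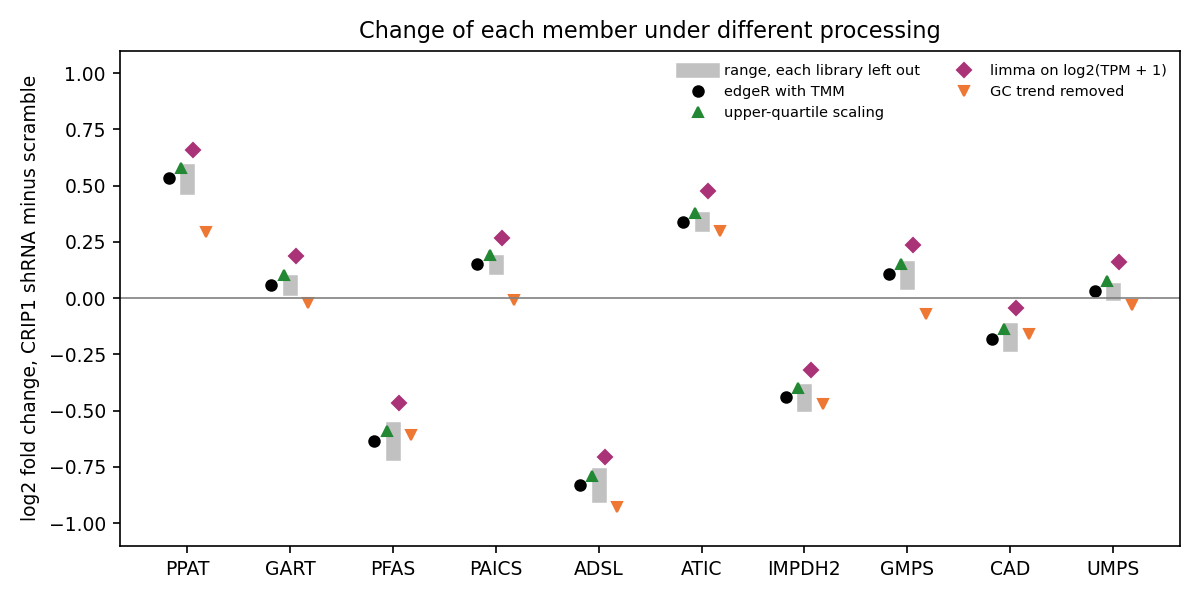
Log2 fold change (CRIP1 shRNA minus scramble) of each member from the edgeR fit with TMM scaling (black), upper-quartile scaling, limma on log2(TPM + 1) and edgeR with a GC trend removed, with grey bars for the range when each library is left out. PPAT, ATIC, PFAS, ADSL and IMPDH2 stay on one side of 0, while GART, PAICS, GMPS and UMPS fall below 0 with the GC trend removed.

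Among genes that supply PRPP, more fell than rose. Of 11 tested, 7 fell and 2 rose, with a median log2 fold change of -0.27, against 38.1% lower and 39.4% higher in all genes. Transketolase (TKT), which links glycolysis to ribose, fell from 262 ± 1.24 to 117 ± 4.84 TPM (SD, n = 3 each; -1.30, SE 0.04). PGD (-0.51, SE 0.03), a dehydrogenase of the oxidative pentose phosphate pathway, fell. Both PRPP synthetases fell, PRPS2 from 131 ± 4.05 to 82.9 ± 3.07 TPM (-0.79, SE 0.04) and PRPS1 from 135 ± 7.33 to 123 ± 5.28 TPM (-0.27, SE 0.04, not called on log2(TPM + 1), adjusted p = 0.0590). PRPS1 made up 53.0%, 48.8% and 50.6% of their sum in scramble and 61.6%, 58.0% and 59.2% after knockdown, without overlap. PGLS (-0.19) and PRPSAP2 (0.10) did not pass the test. On log2(TPM + 1) 5 of the list fell and 3 rose, against 29.6% and 47% of all genes. Once the GC trend was removed 8 fell and 1 rose, against 45.1% and 33.9% of all genes.

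Genes that supply nitrogen donors went both ways. Of 12 tested, 7 rose and 5 fell, against 39.4% higher and 38.1% lower in all genes. GOT1, the aspartate aminotransferase of the cytosol, rose from 80.9 ± 1.88 to 282 ± 5.35 TPM (SD, n = 3 each; 1.67, SE 0.04). ASNS, which uses aspartate and glutamine, rose from 222 ± 6.65 to 551 ± 21.4 TPM (1.18, SE 0.04). The glutamine carrier SLC1A5 (0.74, SE 0.03) and PHGDH (0.75, SE 0.04), the entry to serine and thus glycine, also rose. The 5 that fell, named after their values were seen, were GLUL (-0.79, SE 0.04), which makes glutamine, GOT2 (-0.64, SE 0.04), the mitochondrial counterpart of GOT1, PSPH (-0.39, SE 0.04), which completes serine synthesis, GLS2 and SLC25A13. In the folate list, which holds the enzymes and carriers of one-carbon units, 8 of 13 tested rose and 4 fell, with a median of 0.12. ALDH1L2, a mitochondrial formyl-tetrahydrofolate dehydrogenase, rose from 25.9 ± 1.19 to 94.0 ± 0.478 TPM (1.76, SE 0.04). FPGS, which traps folates in the cell by adding glutamates, fell from 44.4 ± 1.48 to 16.3 ± 0.725 TPM (-1.61, SE 0.06), and the folate carrier SLC19A1 fell (-1.15, SE 0.06). MTHFD2L did not pass the test (0.02).

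Salvage genes went both ways, close to the shares over all genes (39.4% higher and 38.1% lower). They were 6 higher and 7 lower of 16 tested. On log2(TPM + 1) they were 8 higher and 5 lower (47% and 29.6% of all genes). Once the GC trend was removed they were 5 higher and 9 lower (33.9% and 45.1% of all genes). Adenosine deaminase (ADA) fell from 162 ± 0.726 to 57.8 ± 0.173 TPM (SD, n = 3 each; -1.63, SE 0.04), and the purine nucleoside phosphorylase PNP (-0.82, SE 0.04) and uridine kinase UCK2 (-0.85, SE 0.04) fell too. Uridine phosphorylase UPP1 rose from 7.48 ± 0.166 to 24.99 ± 1.21 TPM (1.71, SE 0.10). DCTD (-0.04), UPRT (-0.05) and UCK1 (0.03) did not pass the test. The equilibrative nucleoside carrier SLC29A1, which lets nucleosides into the cell, fell from 78.1 ± 2.27 to 43.6 ± 2.29 TPM (-0.96, SE 0.05). Of the 4 carriers tested, SLC29A3 (-0.76, SE 0.12) and SLC29A4 (-0.81, SE 0.28) also fell. The call of SLC29A4 was lost in 3 of 12 alternatives, namely the DESeq2 Wald test, without scramble replicate 2 and without knockdown replicate 1. SLC29A2 rose from 0.117 to 1.17 TPM.

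**Figure D5:**
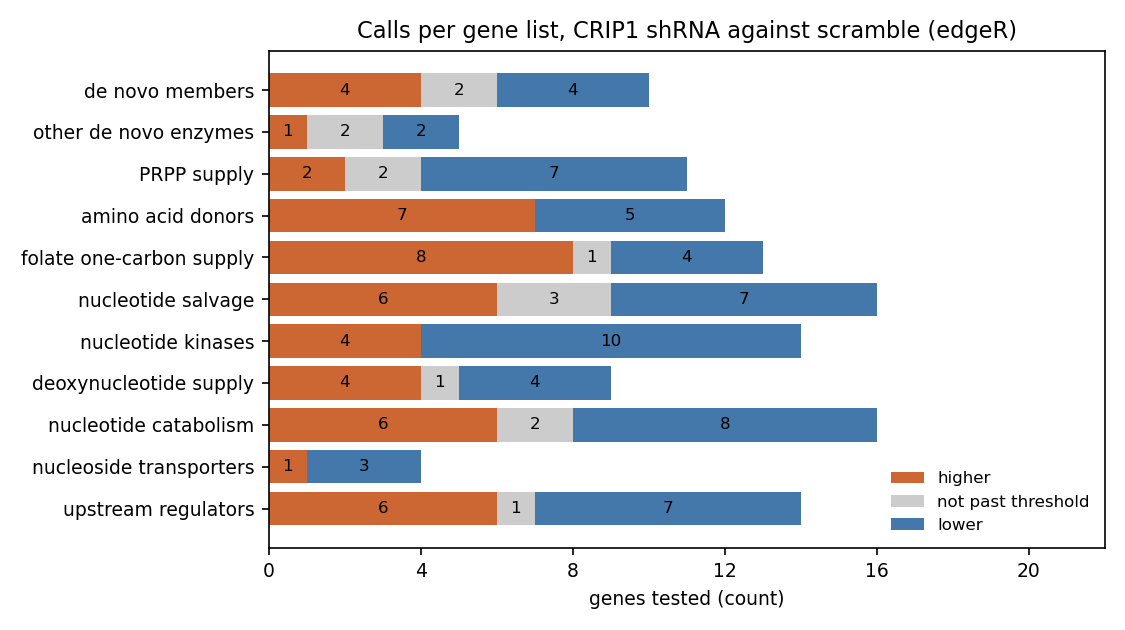
Number of tested genes called higher (orange), lower (blue) or not past the threshold (grey) in each gene list, CRIP1 shRNA against scramble, by edgeR. The members split evenly, 4 higher and 4 lower. Lower calls outnumber higher ones in PRPP supply (7 of 11), nucleotide kinases (10 of 14) and nucleoside transporters (3 of 4). They do so by small margins in nucleotide catabolism, nucleotide salvage, upstream regulators and the other de novo enzymes. Amino acid donors and folate supply have more higher calls, and deoxynucleotide supply splits evenly. Of all genes tested, 38.1% were lower and 39.4% higher.

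Of 14 nucleotide kinases, which phosphorylate mono- and diphosphates, 10 fell and 4 rose, with a median of -0.29, against 38.1% and 39.4% of all genes. On log2(TPM + 1), 6 of 13 tested kinases fell and 3 rose, against 29.6% and 47%. NME1 fell from 986 ± 24.9 to 602 ± 13.9 TPM (SD, n = 3 each; -0.84, SE 0.03) and NME2 from 2405 ± 73.3 to 1906 ± 20.7 TPM (-0.47, SE 0.04). The 2 genes are close copies, so the division of reads between them is uncertain. NME4 (-1.31, SE 0.10) and AK6 (-0.73, SE 0.05) fell. In the deoxynucleotide list, which feeds DNA synthesis, 4 rose and 4 fell of 9. The reductase subunit RRM2 rose from 364 ± 14.2 to 900.3 ± 0.966 TPM (1.17, SE 0.03) and DUT, which clears dUTP, rose (0.79, SE 0.04). DCTPP1 (-0.58, SE 0.05) and NUDT1 (-0.54, SE 0.06), which clean the pool of nucleotides, fell, and SAMHD1 did not pass the test (-0.04). Proliferation markers were split in the same libraries, with 8 higher and 7 lower of 20 (39.4% and 38.1% of all genes). They summed to 4145 to 4215 TPM in scramble and 5293 to 5360 TPM after knockdown. RRM2 and TYMS are in both lists, so that sum contains the rise of RRM2 given above. The part of proliferation in these changes was not tested.

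Genes that break nucleotides down or interconvert them were 6 higher and 8 lower of 16 tested (39.4% and 38.1% of all genes). On log2(TPM + 1) they were 5 higher and 4 lower of 12 tested (47% and 29.6% of all genes). Once the GC trend was removed they were 6 higher and 10 lower (33.9% and 45.1% of all genes). The AMP deaminases AMPD2 (-0.78, SE 0.05) and AMPD1 (-1.08, SE 0.07) and the nucleotidase NT5C3B (-0.93, SE 0.06) fell. GMPR, which returns GMP to IMP, rose from 0.760 ± 0.164 to 7.93 ± 1.58 TPM (SD, n = 3 each; 3.24, SE 0.24). DPYD (-0.11) and NT5C2 (0.04) did not pass the test. Among regulators of these routes 6 rose and 7 fell of 14 tested, against 39.4% and 38.1% of all genes. RPS6KB1 (-0.58, SE 0.04), the S6 kinase, which acts on CAD, fell. The MAX partners MXD1 (0.64, SE 0.06) and MXD4 (-0.60, SE 0.07) went in opposite directions, and MNT did not pass the test (0.18, adjusted p = 0.0566). ATF4, named after its value was seen as a factor that drives amino acid and one-carbon genes, rose from 926 ± 10.9 to 1251 ± 66.8 TPM (0.30, SE 0.04). The part of ATF4 or of any other regulator in the changes of these genes was not tested.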

How the data were processed

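RNA was sequenced from 6 libraries of KMS11 cells, 3 per hairpin, grouped by sample title. The table deposited by the authors holds 3 values for each gene in each library, named in the file headers: estimated counts, FPKM and TPM. Tools listed in the submitters' processing notes, without their roles, are RSEM 1.2.8, Bowtie2 2.2.5 and HISAT2 2.1.0, and the build is GRCh38.p13. The annotation and the strand setting are not given in the sources used here.

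Estimated (expected) counts, as deposited, were rounded. The test was edgeR 4.0.16 (under R 4.3.3): filterByExpr with a minimum count of 10, TMM scaling, group as the only term. P-values were adjusted over all 12612 genes tested, with 0.05 as the threshold. Changes are knockdown minus scramble, and each SE was taken as the fold change (log2) over the square root of F. The members and the gene lists were chosen with earlier results of these data known, so lists are described by counts and medians without a test. Named beside the members are up to 4 genes of smallest adjusted p per list, genes that form an isoenzyme pair or adjoin a member, and, where 5 or fewer, those not called. Others are marked, and some genes that this rule names are not reported here.

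Alternatives were a replicate block, DESeq2 1.42.0 (size factors, and the Wald test), upper-quartile scaling, no filter, at least 50 counts in 3 libraries, limma 3.58.1 on log2(FPKM + 1), log2(TPM + 1) and log2(TPM + 0.1), removal of a GC trend (loess, span 0.5, which also recentres each library), and each library left out. The test was checked on simulated counts for this comparison (12612 genes). A 1.25-fold change was found in 57 of 77 genes, a 1.5-fold change in 46 of 60 and a 2-fold change in 60 of 63. There were 8 false calls. In that simulation few genes changed, in random directions, and all had the same dispersion, whereas 77.6% of genes were called in the real data. It therefore did not check the scaling or the false calls under so broad a change. Counts of replicate libraries differed beyond sampling noise (mean chi-square per gene 1.62 to 4.15), so none was treated as a repeat. Positions, GC content and overlaps come from GENCODE 29 and promoter windows from RefSeq. Intervals against a floor cover counting error only.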

Additional observations from a re-analysis of the deposited data

How the results depend on the processing

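PPAT, ATIC, ADSL, PFAS and IMPDH2 kept their call and direction in each of the 16 alternatives run. Removal of the GC trend took the count of members called higher from 4 to 2, and the share of all genes called higher from 39.4% to 33.9%. There GART (-0.022), PAICS (-0.0063), GMPS (-0.072) and UMPS (-0.030) turned in sign and none of these 4 was called. The median over all genes was -0.083 there and 0.011 in the main fit, and all 4 values lay above that -0.083. The cause was not tested, and that correction also recentres each library. GART and UMPS were called higher on log2(TPM + 1), and CAD was no longer called lower there. Of 352 counts of the other pathway lists over the alternatives, 328 were within 1.5 times the reported count and 24 were not, among them PRPP supply genes called higher, 1 in place of 2 without scramble replicate 2, scramble replicate 3 or knockdown replicate 2. Differences in isoenzyme share kept their sign with FPKM, with estimated counts and with each library left out, though 3 against 3 libraries cannot reach an exact p below 0.1. With the replicate number as a block, 4 members were higher and 4 lower, as without it. The deviations of same-numbered libraries had correlations of 0.05, -0.01 and -0.01. Whether same-numbered libraries were prepared together was not tested. Depth limits only genes such as CTPS2 and ADSS1, with few counts in a library.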
